A study of Mus musculus with 48 samples.

Results

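The comparison set 6 mice killed 7 days (7 d) after the last session of chronic intermittent ethanol (CIE) against 6 CIE mice killed at 72 h, both in the hippocampus (HPC). These 12 arrays were chosen by their labelled exposure and time among the 48 arrays of the series, and all 45037 probe sets were tested. All were adult males of the strain C57BL/6J, each mouse gave 1 array, and the series holds 6 CIE and 6 control (Ctrl) mice at each of 0 h, 8 h, 72 h and 7 d. In the CIE groups, daily sessions of 16 h in ethanol vapor (10 to 13 mg/l) ran for 4 days, were followed by 7 days of abstinence, and were repeated for 4 cycles, with injected ethanol at 1.6 g/kg. Ctrl mice breathed air and received saline. Mice of both exposures were given pyrazole, an inhibitor of alcohol dehydrogenase, at 1 mmol/kg, so no group was free of that drug. The question was how gene expression in the HPC moved between 3 days of abstinence and a full week of it, and the Ctrl mice of 72 h and 7 d gave the same interval without ethanol.

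The brain keeps making oligodendrocytes in adult life. Their precursors carry the growth factor receptor PDGFRA and the proteoglycan NG2, pass through a committed stage that expresses the receptor GPR17 and the secreted factor BMP4, and then turn on myelin genes. Neural stem cells of the dentate gyrus and astrocytes share the lipid-binding protein FABP7, and bone morphogenetic proteins act on such cells through ID transcription factors. Alcohol is known to affect myelin, adult neurogenesis and microglia in the HPC.

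Expression of 3 genes rose in CIE mice between 72 h and 7 d, and none fell, when the false discovery rate (FDR) over all probe sets was held to 0.01. They were Bmp4, which encodes the secreted bone morphogenetic protein, Kcne1l (also called Kcne5), which encodes an accessory subunit of voltage-gated potassium channels, and Fabp7, which encodes the brain fatty acid-binding protein. These 3 of 45037 probe sets were 0.00666% of those tested, and the 3 genes were 0.0165% of the 18193 genes on the array. The change was 1.83-fold for Bmp4, 1.67-fold for Kcne1l and 1.49-fold for Fabp7. The limma fit without adjustment gave p under 0.05 for 4315 probe sets, 1834 higher and 2481 lower at 7 d.

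The sequence just before the transcription start of each of the 3 genes is shown because these were the genes called. Whether they vary together across mice was not tested, and their courses before 72 h differed. All 3 matched a RefSeq entry of build GRCm38.p6, and the 250 bases before the start are given 5′ to 3′ on the strand of the gene. Capitals mark matches, on either strand, to 5 motifs: the E-box CACGTG, the CCAAT box, the RBPJ core TGGGAA, the GC box GGGCGG and the TATA box TATAAA. No matches overlapped.
Bmp4: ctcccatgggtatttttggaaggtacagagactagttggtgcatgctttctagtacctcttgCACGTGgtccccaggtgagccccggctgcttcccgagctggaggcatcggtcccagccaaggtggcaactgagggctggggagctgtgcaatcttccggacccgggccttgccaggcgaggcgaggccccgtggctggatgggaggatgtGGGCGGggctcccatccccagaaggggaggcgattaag
Kcne1l: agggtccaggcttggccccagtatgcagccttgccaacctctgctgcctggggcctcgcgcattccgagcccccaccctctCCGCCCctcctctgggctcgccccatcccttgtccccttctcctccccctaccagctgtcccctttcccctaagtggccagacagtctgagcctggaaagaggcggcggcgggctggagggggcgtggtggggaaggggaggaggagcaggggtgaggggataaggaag
Fabp7: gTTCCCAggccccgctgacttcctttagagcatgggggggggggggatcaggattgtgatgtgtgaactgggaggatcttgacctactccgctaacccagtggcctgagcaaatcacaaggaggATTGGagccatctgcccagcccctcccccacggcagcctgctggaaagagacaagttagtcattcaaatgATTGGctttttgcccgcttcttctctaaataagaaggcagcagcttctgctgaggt
The Bmp4 stretch lies at chr14:46390670-46390919 on the minus strand, that of Kcne1l at chrX:142306199-142306448 on the minus strand and that of Fabp7 at chr10:57784673-57784922 on the plus strand. Bmp4 held 1 E-box, which begins 188 bases before the start, and 1 GC box, 38 bases before it. Kcne1l held 1 GC box, 169 bases before the start. Fabp7 held 2 CCAAT boxes, 126 and 56 bases before the start, and an RBPJ core at 249 bases. Over 32851 RefSeq promoters cut to the same length, 6.02% held the E-box, 33.8% the CCAAT box, 21.6% the RBPJ core, 32.7% the GC box and 12.4% the TATA box. No motif searched was shared by all 3 genes, and none of the 3 held the TATA box. G and C made up 63.2% of the bases for Bmp4, 68% for Kcne1l and 54.8% for Fabp7, against a median of 52.4% over all promoters.

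The array medians of the 12 CIE mice lay between 6.61 and 6.625 on the log2 scale, and all pairs of these arrays correlated at 0.981 or more across probe sets. The labels gave no hybridization batch, but 47 of the 48 arrays fell into 6 sets that share exactly equal values, and each set held 1 CIE mouse of 72 h and 1 of 7 d. One array stood apart. CIE mouse 59 of 7 d had the lowest mean correlation with the other 11, 0.988 against 0.994 or more, and a mean of 8.12 over 8 markers of dentate granule neurons, which lay between 9.72 and 10.60 in the rest of the 12 mice. Markers of CA1 neurons were highest in it, at 11.20. Among the Ctrl mice of 7 d, mice 18 and 22 had dentate marker means of 7.61 and 7.48 and means of 8.95 and 9.33 over markers of the striatum, which reached no more than 7.55 in the other 4. Markers of the dentate gyrus, CA1, and CA3 with CA2 had list means of 8.12 or more in these 12 CIE arrays, the lowest being the dentate mean of mouse 59. No cutoff for hippocampal tissue was set. In such tissue, fewer cells of a type and less RNA per cell cannot be told apart. Values without these arrays are given beside the lists that they moved most.

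Bmp4 showed the largest fold change of the 3. Its log2 expression was 5.38 to 6.04 (median 5.63) at 72 h and 6.22 to 7.09 (median 6.47) at 7 d. The lowest mouse of 7 d lay above the highest of 72 h, so that the groups did not overlap. Such a separation, with 7 d higher, was found for 52 of the 18193 genes (0.286%), and the opposite one for 97 (0.533%). The group means were 5.66 ± 0.25 and 6.53 ± 0.32 (SD, n = 6 each). The change in log2 expression was 0.87 ± 0.12 (SE), with an adjusted p of 0.000205 in limma. Within the 6 array sets the 7 d mouse exceeded the 72 h mouse each time, by 0.26 to 1.47. In CIE mice Bmp4 was high, then low, then high again. The earlier part of this course was not tested in Ctrl mice. The mean of 6.27 at 0 h and 6.19 at 8 h was followed by a fall to 72 h, by 0.61 from 0 h (adjusted p = 0.00181) and by 0.53 from 8 h (adjusted p = 0.00404). These comparisons share the 72 h mice with the main one, and they called 510 probe sets (1.13%) and 1181 probe sets (2.62%) in all. Ctrl mice held means of 6.02 at 72 h and 6.03 at 7 d, a change of 0.011 ± 0.12. CIE mice differed from Ctrl mice by -0.36 at 72 h (adjusted p = 0.275) and by 0.50 at 7 d (adjusted p = 0.0105), and neither value passed the threshold.

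Kcne1l also separated the groups completely. Its log2 expression was 5.52 to 5.96 (median 5.63) at 72 h and 6.23 to 6.62 (median 6.44) at 7 d. The means were 5.68 ± 0.17 and 6.43 ± 0.18 (SD, n = 6 each). Its change was 0.74 ± 0.10 (SE, adjusted p = 0.000205), and within the array sets it ran from 0.26 to 1.10. Between the earlier times the calls were less firm. They rest on CIE mice alone. Ctrl mice were not tested over those intervals, so no earlier rise is shown to be particular to CIE mice. Means were 5.47 at 0 h and 5.27 at 8 h, and expression at 72 h was 0.42 above 8 h (adjusted p = 0.00966, but 0.0229 with the array set as a block) and 0.21 above 0 h (adjusted p = 0.301). In Ctrl mice the means were 5.95 at 72 h and 6.07 at 7 d, a change of 0.11 ± 0.10. CIE mice stood -0.27 from Ctrl mice at 72 h (adjusted p = 0.358) and 0.36 at 7 d (adjusted p = 0.0334), neither past the threshold.

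Fabp7 was the most strongly expressed of the 3. Its log2 expression was 9.64 to 9.97 (median 9.71) at 72 h and 10.05 to 10.51 (median 10.34) at 7 d, again with no overlap. The means were 9.76 ± 0.13 and 10.33 ± 0.17 (SD, n = 6 each), and the change was 0.57 ± 0.090 (SE, adjusted p = 0.00154). Fabp7 climbed in CIE mice from its lowest level at 8 h. The same early part of the course was not tested in Ctrl mice, so the climb is not shown to be particular to CIE. The mean was 9.35 at 0 h and 9.12 at 8 h, and 72 h was 0.64 above 8 h (adjusted p = 4.03e-06) and 0.41 above 0 h (adjusted p = 0.00537, but 0.0117 with the array set as a block). Ctrl mice had a change of the same sign that did not pass. Their means were 10.01 at 72 h and 10.28 at 7 d, with a change of 0.27 ± 0.090 (adjusted p = 0.109), and all 6 array sets had the 7 d Ctrl mouse higher. At 7 d CIE and Ctrl mice differed by 0.050 (adjusted p = 0.828).

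**Figure D1:**
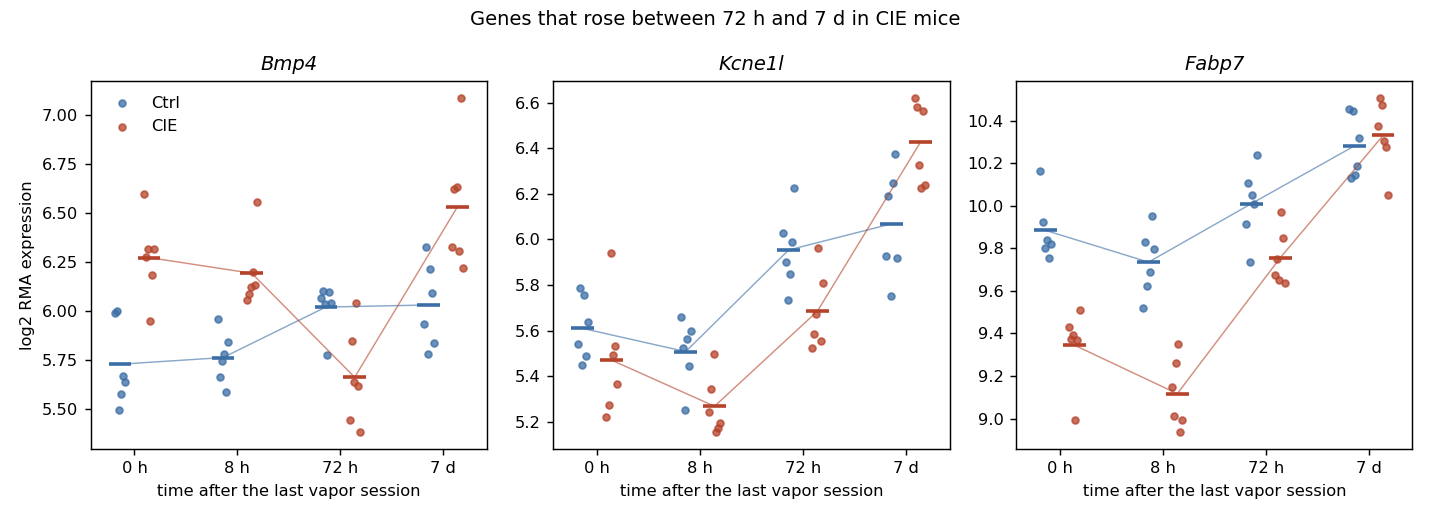
Log2 RMA expression of Bmp4, Kcne1l and Fabp7 (y axis) in each of the 48 mice, by time after the last session (x axis). Red points are CIE mice, blue points are Ctrl mice and thick bars are the means of 6 mice, and the CIE mice of 7 d lie above those of 72 h with no overlap for each gene.

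The 3 calls held with the array set as a block (adjusted p = 0.00142 for Bmp4, 0.00199 for Kcne1l and 0.00492 for Fabp7) and without mouse 59. They also held, at an adjusted p of 0.0099 for each, with the 24 arrays of 72 h and 7 d. With the 12 CIE arrays fitted alone the adjusted p was 0.0995 for Bmp4, 0.022 for Kcne1l and 0.0389 for Fabp7, and 3 other genes were called instead, Slfn2 and Tekt5 lower and Plch1 higher at 7 d. Fabp7 lost its call when CIE mouse 33 or 71 of 72 h (adjusted p = 0.0105 and 0.0113) or CIE mouse 9 or 27 of 7 d (0.014 and 0.0124) was left out, while Bmp4 and Kcne1l kept theirs in all 12 such fits. Bmp4 and Kcne1l are dim on these arrays: their mean over all arrays was below the median probe set, and a filter at that median removed both before the test.

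The difference between the CIE change and the Ctrl change was tested directly and passed for 0 of 45037 probe sets in limma at an FDR of 0.01 or of 0.05, with 3789 at an unadjusted p under 0.05. The smallest adjusted p was 0.0731, and Bmp4 was among the probe sets at that value with a difference of 0.86 ± 0.17. For Kcne1l the difference was 0.63 ± 0.15 (adjusted p = 0.143) and for Fabp7 it was 0.30 ± 0.13 (adjusted p = 0.49). None of the 3 rises was therefore shown to differ from the change in Ctrl mice. With CIE mouse 35 of 72 h left out, 1 probe set passed, that of the chemokine gene Ccl9, whose difference was 0.88.

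Among Ctrl mice the same interval gave 36 called probe sets (0.0799%), 13 higher and 23 lower at 7 d. By gene, 2 were higher and 17 lower (0.0934% of genes). They included the class I molecules B2m, at -0.68 ± 0.13, and H2-M3, at -0.55 ± 0.11, and the secreted glycoprotein Lgals3bp, at -0.87 ± 0.17. Without Ctrl mice 18 and 22 and CIE mouse 59, 0 probe sets were called in Ctrl mice, as with the array set as a block, while the count in CIE mice stayed at 3.

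The next 12 genes by p, each read from its brightest probe set other than those with the suffix x_at where it had one, did not pass the threshold and are given as values. Hspb3, a small heat shock protein, stood at 5.68 to 6.06 (median 5.77) at 72 h and 6.36 to 6.90 (median 6.597) at 7 d, with no overlap. Its change was 0.79 ± 0.16 (adjusted p = 0.0756), larger in size than that of Fabp7 but with a wider error. H1f2, a linker histone, was 11.11 to 11.38 (median 11.27) at 72 h and 10.65 to 10.96 (median 10.84) at 7 d, and every mouse of 7 d was below every mouse of 72 h. Its change of -0.45 ± 0.085 (adjusted p = 0.0237) stood beside -0.42 ± 0.085 in Ctrl mice. Slfn2, a Schlafen family gene induced by interferon, was 7.18 to 7.31 (median 7.27) at 72 h and 6.51 to 6.82 (median 6.70) at 7 d, again fully separated. Its change was -0.57 ± 0.11 (adjusted p = 0.0237), against -0.17 ± 0.11 in Ctrl mice.

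Of the other 9, the higher ones at 7 d were Pdzrn4, a PDZ and RING domain protein, at 0.47 ± 0.11, Gpr17, the receptor of committed oligodendrocyte precursors, at 0.44 ± 0.099, B3galt1, a galactosyltransferase, at 0.44 ± 0.095, Gm11627, a predicted gene, at 0.38 ± 0.085, and Mmp14, a membrane-bound matrix metalloproteinase, at 0.31 ± 0.071. The lower ones were Ciz1, a nuclear protein of DNA replication, at -0.21 ± 0.046, Rad51c, of homologous recombination, at -0.29 ± 0.061, Crocc, of the ciliary rootlet, at -0.33 ± 0.074, and Ncapd2, a condensin subunit, at -0.35 ± 0.075. Their adjusted p ran from 0.0983 to 0.131. For B3galt1, Gpr17, Ncapd2, Mmp14, Gm11627, Ciz1 and Rad51c the CIE mean lay further from the Ctrl mean at 72 h than at 7 d. For Pdzrn4 and Crocc it was about as far at both times but on opposite sides. Pdzrn4 differed from Ctrl mice by -0.16 at 72 h and 0.16 at 7 d, and Crocc by 0.20 and -0.19. B3galt1 in CIE mice had a mean of 8.93 at 72 h against 9.42 in Ctrl mice and 9.37 against 9.38 at 7 d, and Gpr17 had 8.65 against 9.08 and then 9.10 against 9.12. The difference from Ctrl mice at 72 h was -0.50 for B3galt1 (adjusted p = 0.0167 in limma) and -0.43 for Gpr17 (adjusted p = 0.0601). These genes were picked by a small p in the main comparison, which uses the same CIE mice of 72 h and 7 d. Their distances from Ctrl mice are therefore not separate support for a departure at 72 h. All other probe sets of H1f2, Rad51c, Ncapd2, B3galt1 and Mmp14 had values of the same sign, at -0.041 and -0.32, -0.20, -0.076, 0.17 to 0.61, and 0.014 and 0.051.

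At an FDR of 0.05, 7 probe sets passed, 3 higher and 4 lower. Beside the 5 genes with the smallest p, these were a probe set of Irf3, a transcription factor that switches on interferon genes, and 1 probe set with no gene name, both singled out after their values were seen. Irf3 stood at 8.79 to 8.87 (median 8.85) at 72 h and 8.39 to 8.79 (median 8.50) at 7 d, fully separated. Its change was -0.29 ± 0.056 (adjusted p = 0.0247 in limma), against -0.16 ± 0.056 in Ctrl mice. That probe set can bind related transcripts, and of the other 3 for Irf3, 2 were lower (-0.29 and -0.20) and 1 was higher (0.22). The probe set with no gene name had a change of -0.60 ± 0.11 (adjusted p = 0.0237 in limma), against 0.067 ± 0.11 in Ctrl mice.

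**Figure D2:**
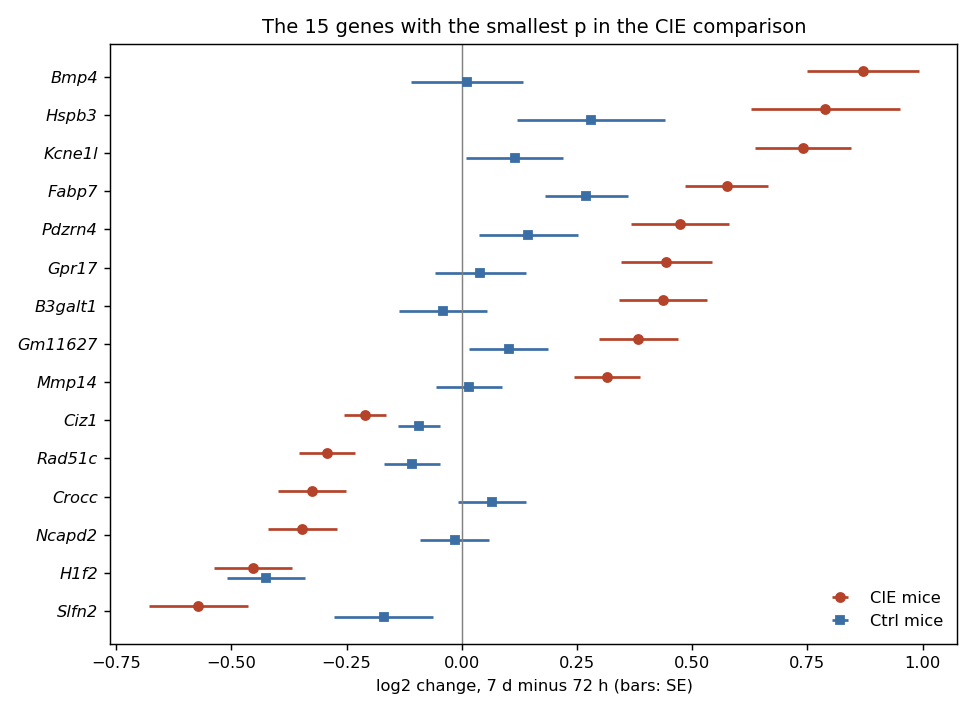
Change in log2 expression from 72 h to 7 d (x axis, with SE) of the 15 genes with the smallest p in CIE mice (y axis), for CIE mice (red circles) and Ctrl mice (blue squares). Bmp4, Kcne1l and Fabp7 passed an FDR of 0.01, and H1f2 is the gene whose CIE and Ctrl changes lie nearest each other.

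Gene lists were read by how many measured members were higher or lower at an unadjusted p under 0.05 and by their median. Over all 18193 genes, 536 (2.95%) were higher and 1303 (7.16%) were lower on that rule, 7176 (39.4%) had a change above 0, and the median change was -0.024. Bmp4 and Fabp7 were the only called members of the 53 lists, so all other members below are values that did not pass the threshold.

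The list of oligodendrocyte precursors, the cells that give rise to myelinating oligodendrocytes, had a median above that of all genes. It had 8 measured members, of which 7 had a change above 0 and 3 were higher at p under 0.05, with a median of 0.095 against -0.023 in Ctrl mice (-0.095 without Ctrl mice 18 and 22). Bmp4 and Gpr17 were already named above for their small p, and the list was chosen with earlier results of these data known. The counts are therefore not separate support for a change in these cells. After Bmp4 came Gpr17, at 8.52 to 8.84 (median 8.63) at 72 h and 8.80 to 9.30 (median 9.17) at 7 d, where 35 of the 36 pairs of a 7 d and a 72 h mouse had the 7 d mouse higher. Its change was 0.44 ± 0.099 (adjusted p = 0.131). Pdgfra, the growth factor receptor that marks these precursors, was 10.06 to 10.34 (median 10.20) at 72 h and 10.39 to 10.67 (median 10.40) at 7 d, with no overlap. Its change was 0.29 ± 0.086 (adjusted p = 0.29). The other markers of the lineage had values no larger than their SE. The NG2 gene Cspg4 had 0.0035 ± 0.11, and the lineage factors Olig1, Olig2 and Sox10 had 0.057 ± 0.084, 0.072 ± 0.11 and -0.049 ± 0.14. Enpp6, of newly formed oligodendrocytes, had 0.12 ± 0.13 in CIE mice and 0.42 ± 0.13 in Ctrl mice. The mean of the list in each mouse was 8.23 to 8.45 at 72 h and 8.41 to 8.71 at 7 d, and Ctrl mice of both times spanned 8.23 to 8.80.

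Genes of mature oligodendrocytes and myelin were less one-sided in number, a difference that was not tested. Of 14 measured, 9 had a change above 0 and 0 reached p under 0.05 in either direction in limma, with a median of 0.037. Myelin basic protein, Mbp, was 13.54 to 13.70 (median 13.62) at 72 h and 13.62 to 13.83 (median 13.66) at 7 d, with overlapping groups and a change of 0.060 ± 0.058. Mog, of the outer myelin surface, had 0.084 ± 0.20. Without mouse 59, whose mean over this list was the highest of the 12, the median was -0.0018.

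The list of Notch and neural stem cell genes, which holds Fabp7, had 26 measured members, 19 with a change above 0, 3 higher and 0 lower at p under 0.05, and a median of 0.068 against -0.14 in Ctrl mice (-0.030 without Ctrl mice 18 and 22). Nr2e1, the nuclear receptor that keeps stem cells in the undifferentiated state, was 6.69 to 7.30 (median 7.19) at 72 h and 7.27 to 7.77 (median 7.37) at 7 d. Its groups nearly separated, with 35 of 36 pairs higher at 7 d and a change of 0.37 ± 0.13 (adjusted p = 0.385). The Notch targets Hes1 and Hes5 had 0.23 ± 0.10 (adjusted p = 0.498) and 0.23 ± 0.16 (adjusted p = 0.649). The ID genes, which bone morphogenetic proteins induce, were all above 0: Id1 at 0.074 ± 0.14, Id2 at 0.12 ± 0.10, Id3 at 0.19 ± 0.14 and Id4 at 0.17 ± 0.087 (adjusted p = 0.527). None of the 4 reached p under 0.05. Without mouse 59 the list had 23 members above 0, 7 higher at p under 0.05 and a median of 0.14.

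Genes of immature granule neurons lay on both sides of 0. Of 19 members, 7 were above 0, 2 were higher and 2 lower at p under 0.05. Neurog2, of neuronal progenitors, had 0.63 ± 0.27, and Dcx, doublecortin of migrating young neurons, had 0.41 ± 0.20 in CIE mice and 0.49 ± 0.20 in Ctrl mice. Ncam1, an adhesion molecule, had -0.13 ± 0.057. None of these passed the test over all probe sets, and without mouse 59 the list had 1 higher and 0 lower at p under 0.05 in limma.

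Microglia markers had nearly all their values on one side of 0. Of 25 measured, 24 had a change above 0, 7 were higher and 0 lower at p under 0.05, and 2 separated the groups. The median was 0.13 in CIE mice and -0.26 in Ctrl mice, where 2 members were above 0. P2ry12, the purine receptor of resting microglia, was 9.38 to 9.80 (median 9.71) at 72 h and 9.76 to 10.32 (median 10.11) at 7 d. Only 1 of 36 pairs had the 72 h mouse higher, and the change was 0.42 ± 0.10 (adjusted p = 0.199). Cx3cr1, the fractalkine receptor, had 0.40 ± 0.12 (adjusted p = 0.319), Fcrls had 0.35 ± 0.11 (adjusted p = 0.329), Itgam, the integrin CD11b, had 0.30 ± 0.11 (adjusted p = 0.413) and Tmem119 had 0.19 ± 0.091 (adjusted p = 0.511). Fcrls and Gpr34 were higher in all 36 pairs. Aif1, which encodes IBA1, was nearer 0 at 0.097 ± 0.10, and the lysosomal marker Cd68 had 0.059 ± 0.10. The list mean was 8.51 to 8.73 at 72 h and 8.63 to 8.94 at 7 d, so that the groups overlapped. Without mouse 59 the median was 0.13. In Ctrl mice without mice 18 and 22 it was -0.21.

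Astrocyte, vascular and meningeal markers also had medians above 0 in CIE mice. Of 13 astrocyte genes, 11 had a change above 0 and 2 were higher at p under 0.05: Gja1, the gap junction protein connexin 43, with 0.19 ± 0.075 (adjusted p = 0.445) and every 7 d mouse above every 72 h mouse, and Slc1a2, the main glutamate transporter, with 0.11 ± 0.046 (adjusted p = 0.461). Gfap had 0.19 ± 0.23 in CIE mice and -0.76 ± 0.23 in Ctrl mice. The astrocyte median was 0.10 in CIE mice and -0.24 in Ctrl mice, or -0.064 without Ctrl mice 18 and 22. Without mouse 59, 4 astrocyte genes were higher at p under 0.05. Endothelium and pericytes had 10 of 12 above 0, 0 at p under 0.05 in limma, and a median of 0.11. Without mouse 59, which had the lowest mean of this list, all 12 were above 0, 7 were higher at p under 0.05 and the median was 0.26. In Ctrl mice 0 of the 12 were above 0 and the median was -0.22, or -0.155 without Ctrl mice 18 and 22.

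Meningeal and fibroblast markers had 14 of 15 above 0, 5 higher at p under 0.05 and a median of 0.24. Without mouse 59, 8 were higher and the median was 0.42. In Ctrl mice 2 of the 15 were above 0 and the median was -0.25, or -0.16 without Ctrl mice 18 and 22. Ptgds, prostaglandin D synthase of the meninges and of oligodendrocytes, was 12.35 to 12.52 (median 12.44) at 72 h and 12.54 to 13.63 (median 12.65) at 7 d, fully separated. Its change was 0.46 ± 0.12 (adjusted p = 0.232). Col3a1, a fibrillar collagen, had 0.38 ± 0.17 (adjusted p = 0.492) and Igf2 had 0.35 ± 0.16 (adjusted p = 0.496). The mean of the list ran from 7.16 to 7.44 at 72 h but from 6.94 in mouse 59 to 8.35 in mouse 45 at 7 d. Mouse 45 also had the highest Bmp4, 7.09. Its part in the Bmp4 result was not tested beyond leaving it out, which kept the call. The choroid plexus gene Ttr, a marker of carried-over ventricular tissue, was 9.79 to 10.97 (median 10.26) at 72 h and 9.93 to 11.58 (median 10.79) at 7 d, with overlapping groups. Its change was 0.39 ± 0.58 in CIE mice and -2.07 ± 0.58 in Ctrl mice. Of the 11 choroid plexus markers measured, 7 had a change above 0 and 4 below. Only Kl was higher at p under 0.05 in limma, with 0.49 ± 0.22 (adjusted p = 0.479), and 0 were lower. The median of these markers was 0.040 in CIE mice and -0.063 in Ctrl mice.

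**Figure D3:**
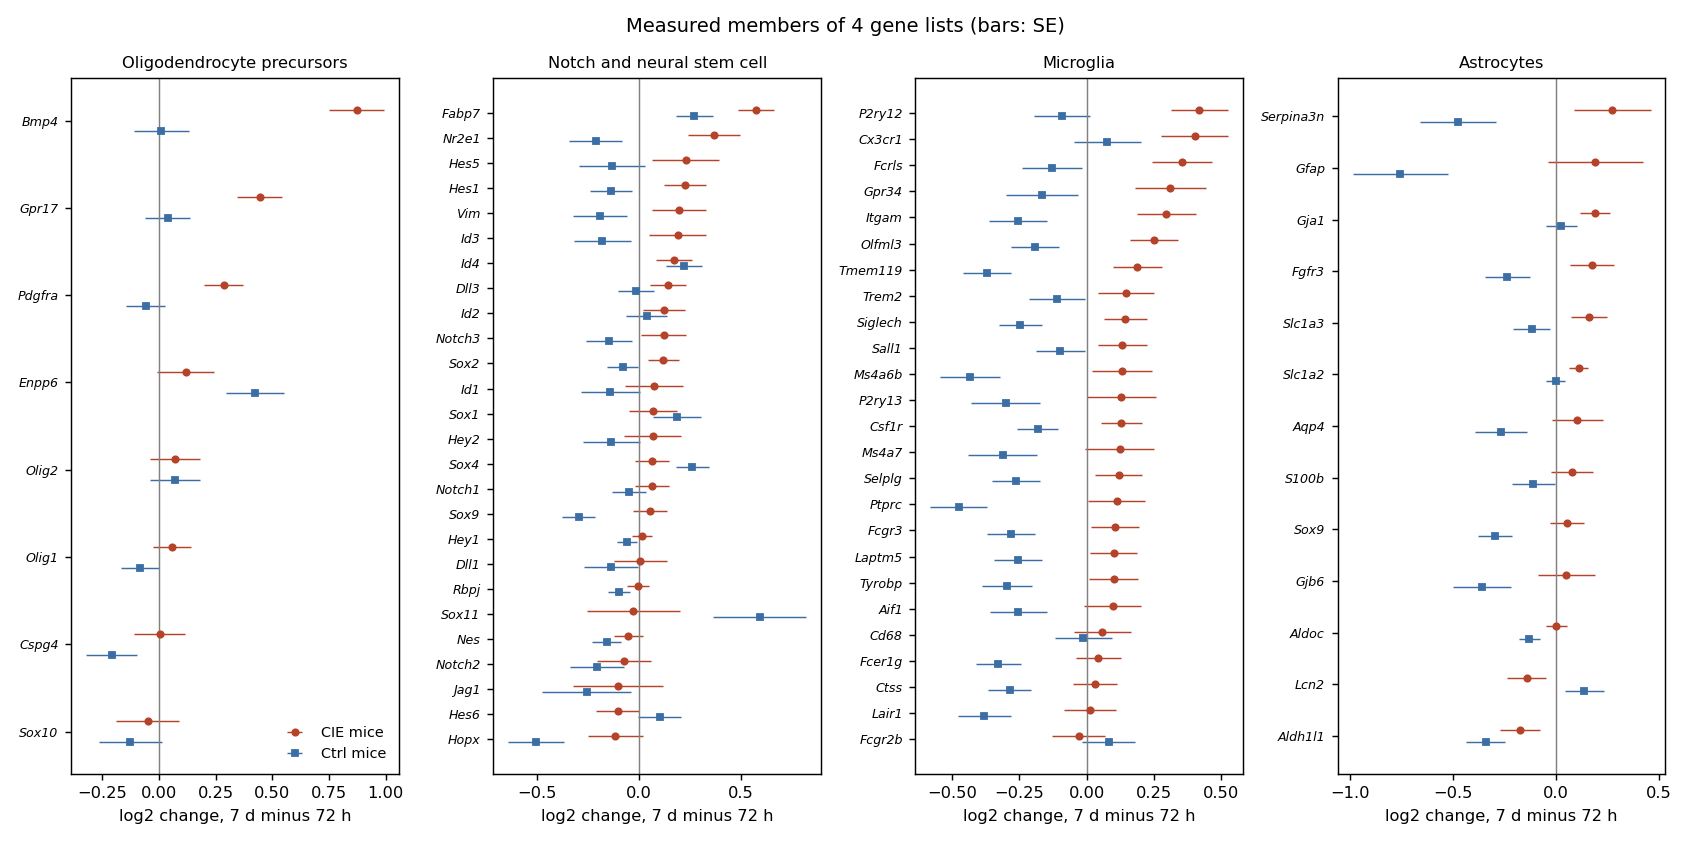
Change in log2 expression from 72 h to 7 d (x axes, bars are SE) of every measured member of the lists of oligodendrocyte precursors, Notch and neural stem cell genes, microglia and astrocytes (y axes), in CIE mice (red circles) and Ctrl mice (blue squares). Only Bmp4 and Fabp7 passed the test, and 24 of 25 microglia markers lie above 0 in CIE mice and 2 of 25 in Ctrl mice.

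Class I and class II antigen presentation, interferon-stimulated genes, and chemokines with cytokines had medians below 0 in both exposures, while complement genes had 5 of 9 above 0 and a median of 0.085 in CIE mice against -0.10 in Ctrl mice. Class I antigen presentation had 11 measured members, 2 above 0 and 3 lower at p under 0.05, with a median of -0.24 in CIE mice and -0.56 in Ctrl mice. H2-M3 was 7.61 to 8.01 (median 7.77) at 72 h and 7.30 to 7.55 (median 7.47) at 7 d, with no overlap, and had -0.34 ± 0.11 (adjusted p = 0.329). The classical class I genes H2-D1 and H2-K1 had -0.45 ± 0.20 (adjusted p = 0.492) and -0.45 ± 0.21 (adjusted p = 0.499), and B2m, their shared light chain, had -0.22 ± 0.13. Interferon-stimulated genes had 3 of 35 above 0, 4 lower and 1 higher at p under 0.05, and a median of -0.18 in CIE mice against -0.49 in Ctrl mice. The chemokine Cxcl10 was 5.496 to 5.85 (median 5.75) at 72 h and 5.06 to 5.43 (median 5.24) at 7 d, fully separated. Its change was -0.44 ± 0.18 (adjusted p = 0.46). Ifit3, an antiviral effector, also separated the groups, with -0.37 ± 0.22 (adjusted p = 0.578). Eif2ak2, the kinase PKR, was the one higher at p under 0.05, at 0.31 ± 0.14 (adjusted p = 0.49). Chemokines and cytokines had 7 of 22 above 0 and 0 at p under 0.05 in limma, and class II genes had 3 of 7 above 0 with Cd74, the invariant chain, at -0.50 ± 0.25 (adjusted p = 0.519). Without mouse 59, 1 class I gene, 0 class II genes and 2 interferon-stimulated genes were lower at p under 0.05 in limma, and 0 of these were higher.

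The AP-1 family, transcription factors of the immediate early response, had 2 of 9 members above 0 and 3 lower at p under 0.05, with a median of -0.23 in CIE mice and 0.035 in Ctrl mice. Fosl2 had -0.54 ± 0.18 (adjusted p = 0.357), Fosb -0.34 ± 0.12 (adjusted p = 0.409) and Atf3 -0.29 ± 0.13 (adjusted p = 0.478). Fos itself was 7.88 to 8.29 (median 8.17) at 72 h and 7.54 to 8.30 (median 7.84) at 7 d, with a change of -0.23 ± 0.22 and overlapping groups. The wider list of activity-regulated genes had 16 of 32 above 0, a median of -0.0086 (0.0027 from the most variable probe sets and -0.026 without mouse 59), and 2 lower at p under 0.05, Nr4a2 with -0.50 ± 0.21 (adjusted p = 0.464) and Btg2 with -0.32 ± 0.16 (adjusted p = 0.511).

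Clock genes gave 3 higher and 4 lower of 22 at p under 0.05, but 1 higher and 0 lower without mouse 59 in limma. Arntl, which encodes BMAL1, was 9.23 to 9.43 (median 9.34) at 72 h and 9.44 to 9.76 (median 9.56) at 7 d, fully separated, with 0.23 ± 0.074 (adjusted p = 0.329). Hlf, a clock output factor, was the opposite, with no 7 d mouse above a 72 h mouse and -0.32 ± 0.12 (adjusted p = 0.438). Per3 had -0.25 ± 0.11 (adjusted p = 0.49). The sources used here do not give the hour of day at which the mice of each time were killed. Glucocorticoid-induced genes had 16 of 26 above 0, 3 higher and 2 lower at p under 0.05, or 4 higher and 0 lower without mouse 59 in limma. Tsc22d3, the leucine zipper GILZ, had 0.26 ± 0.10 (adjusted p = 0.441) and Fkbp5, the receptor co-chaperone, had -0.25 ± 0.12 (adjusted p = 0.521).

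Of 19 genes of the NRF2 and oxidative stress list, 1 was higher and 3 were lower at p under 0.05. Srxn1, sulfiredoxin, was 9.35 to 9.48 (median 9.43) at 72 h and 9.00 to 9.23 (median 9.16) at 7 d, fully separated. Its change was -0.27 ± 0.066 (adjusted p = 0.185). Txnrd1, thioredoxin reductase, had -0.21 ± 0.065 (adjusted p = 0.297) and Gsta4, a glutathione transferase, had 0.29 ± 0.092 (adjusted p = 0.338). Endoplasmic reticulum chaperones had 3 of 28 lower, led by Sdf2l1 with -0.30 ± 0.094 (adjusted p = 0.334). Of 14 genes of alcohol and acetate metabolism, 0 reached p under 0.05 in limma. Cholesterol synthesis, the supply line of myelin lipid, had 15 of 21 above 0, 5 higher and 1 lower at p under 0.05, and a median of 0.11 in CIE mice and -0.018 in Ctrl mice. Msmo1, a sterol oxidase, was 10.39 to 10.54 (median 10.44) at 72 h and 10.53 to 10.97 (median 10.73) at 7 d, and 34 of 36 pairs had the 7 d mouse higher, with 0.28 ± 0.083 (adjusted p = 0.281). Hmgcs1, which makes the first committed precursor, had 0.19 ± 0.077 (adjusted p = 0.461) and Idi1, an isoprenoid isomerase, had 0.19 ± 0.078 (adjusted p = 0.458). Ebp was the one lower, at -0.21 ± 0.090 (adjusted p = 0.478), and without mouse 59 there was 0 lower at p under 0.05 in limma.

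Oxidative phosphorylation genes had small values below 0. Of 45 subunits, 3 were above 0, 6 were lower (3 without mouse 59) and 0 higher at p under 0.05 in limma, and the median was -0.045 in CIE mice and -0.057 in Ctrl mice. Cox6c, a subunit of cytochrome oxidase, was 13.31 to 13.40 (median 13.37) at 72 h and 13.24 to 13.31 (median 13.28) at 7 d, with a change of -0.079 ± 0.028 (adjusted p = 0.399). Splicing factors had 7 of 46 above 0 and 6 lower at p under 0.05, led by Hnrnpl with -0.38 ± 0.11 (adjusted p = 0.281). Their median of -0.064 turned to 0.14 when each gene was read from its most variable probe set, so the list has no settled direction. Likewise the chromatin genes that the study named went from -0.056 to 0.19. In that list, chosen by the study on these samples, Smarca4, the remodelling ATPase BRG1, had -0.16 ± 0.046 (adjusted p = 0.28) and Baz1b had -0.27 ± 0.095 (adjusted p = 0.376).

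Synaptic vesicle and release genes had 5 of 23 above 0, and 5 lower (2 without mouse 59) and 0 higher at p under 0.05 in limma. Cplx1, complexin 1, was 12.59 to 12.76 (median 12.67) at 72 h and 12.34 to 12.58 (median 12.44) at 7 d, fully separated. Its change was -0.21 ± 0.066 (adjusted p = 0.324). Syt2, a fast calcium sensor, and Vamp1, a vesicle SNARE, also separated the groups, with -0.82 ± 0.28 (adjusted p = 0.364) and -0.34 ± 0.15 (adjusted p = 0.496). Slc17a6, the vesicular glutamate transporter VGLUT2 of subcortical projection neurons, had -1.43 ± 0.66 (adjusted p = 0.499), and Ctrl mice had -1.43 ± 0.66. Of the 9 markers of the thalamus, which holds such neurons, Prkcd had -0.57 ± 0.19 (adjusted p = 0.357) and Cbln4 had 0.65 ± 0.27 (adjusted p = 0.464), and the list median of -0.057 turned to 0.076 when genes were read from their most variable probe set and to 0.021 without mouse 59.

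Among receptors, Neto1, an auxiliary subunit of kainate receptors, had -0.31 ± 0.091 (adjusted p = 0.281) and separated the groups, and Grm8 and Grm3, metabotropic glutamate receptors, had -0.63 ± 0.22 (adjusted p = 0.364) and 0.34 ± 0.11 (adjusted p = 0.357). Dlgap2, a postsynaptic scaffold, had 0.67 ± 0.22 (adjusted p = 0.348) in CIE mice and 0.69 ± 0.22 in Ctrl mice. GABA-A receptor subunits, the targets of alcohol as a sedative, had 0 of 13 at p under 0.05 in limma and a median of 0.0037, which was -0.00076 when arrays were centred on their medians. Drd1, the dopamine D1 receptor, was 8.20 to 9.04 (median 8.62) at 72 h and 6.74 to 8.58 (median 7.75) at 7 d. It had -0.86 ± 0.29 (adjusted p = 0.372) in CIE mice and 1.09 ± 0.29 in Ctrl mice, and the list of dopamine receptors and striatal markers had a Ctrl median of 0.41, or -0.077 without Ctrl mice 18 and 22.

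Potassium channels, the class that Kcne1l belongs to, went both ways. Of 16 ethanol-sensitive channels, 3 were higher and 4 lower at p under 0.05. Kcnma1, the pore of the BK channel, was 9.29 to 10.02 (median 9.70) at 72 h and 9.76 to 10.26 (median 10.02) at 7 d, with a change of 0.36 ± 0.12 (adjusted p = 0.353), while its partner Kcnmb4 had -0.18 ± 0.072 (adjusted p = 0.46). Kcnk2, the channel TREK-1, had 0.22 ± 0.078 (adjusted p = 0.408) and Kcna1 had -0.33 ± 0.10 (adjusted p = 0.335). Neuropeptides were the widest list. Nts, neurotensin, was 8.71 to 9.76 (median 9.13) at 72 h and 6.35 to 8.63 (median 7.16) at 7 d, with no overlap and a change of -1.86 ± 0.75 (adjusted p = 0.455), the largest in size of the members named here. Crh, the corticotropin-releasing hormone, had 0.51 ± 0.18 (adjusted p = 0.404), Cck had 0.27 ± 0.12 (adjusted p = 0.492) and the somatostatin receptor Sstr2 had -0.42 ± 0.15 (adjusted p = 0.387). The cannabinoid receptor Cnr1 had 0.16 ± 0.069 (adjusted p = 0.467), and 0 genes of the opioid and endocannabinoid list reached p under 0.05 in limma without mouse 59.

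Subfield marker values depended on mouse 59. The 8 dentate granule markers had 1 member above 0 and a median of -0.59, which was -0.21 without mouse 59. The Ctrl median of that list was -0.68, and it turned to 0.33 without Ctrl mice 18 and 22. In CA1 markers 5 of 6 were above 0, with a median of 0.41, or 0.31 without it. CA3 and CA2 markers had 5 of 8 lower at p under 0.05 in limma and a median of -0.40. Among these 5 were Cpne4, with -0.61 ± 0.26 (adjusted p = 0.468), and Amigo2, with -0.58 ± 0.27 (adjusted p = 0.498). The 2 members above 0 were Nnat, with 0.38 ± 0.30, and Rgs14, with 0.20 ± 0.16. Without mouse 59, 0 members were lower at p under 0.05 in limma and the median was -0.25. The mean of the CA3 and CA2 list lay between 9.04 and 9.21 at 72 h and between 8.37 and 9.11 at 7 d. The part of this difference in subfield make-up in the other lists was not tested. Bmp4, Kcne1l and Fabp7 were called without mouse 59 as well.

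**Figure D4:**
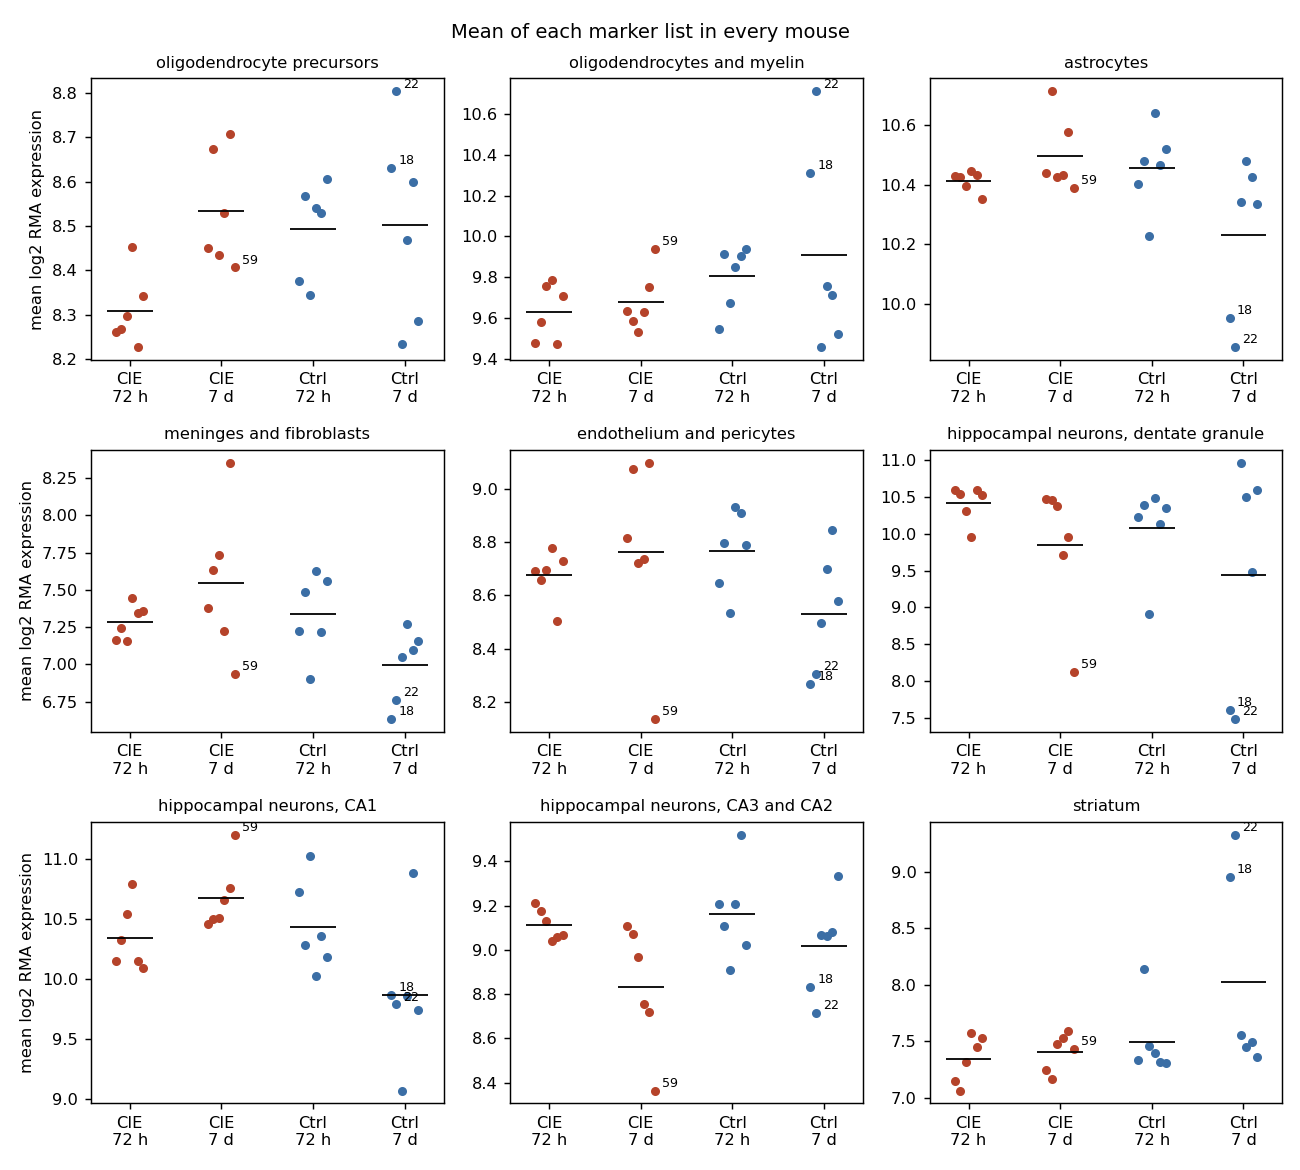
Mean log2 RMA expression of 9 marker lists (y axes) in each CIE mouse (red) and Ctrl mouse (blue) of 72 h and 7 d (x axes), with group means as black bars. Numbers mark CIE mouse 59 and Ctrl mice 18 and 22, which lie lowest for dentate granule markers.

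**Figure D5:**
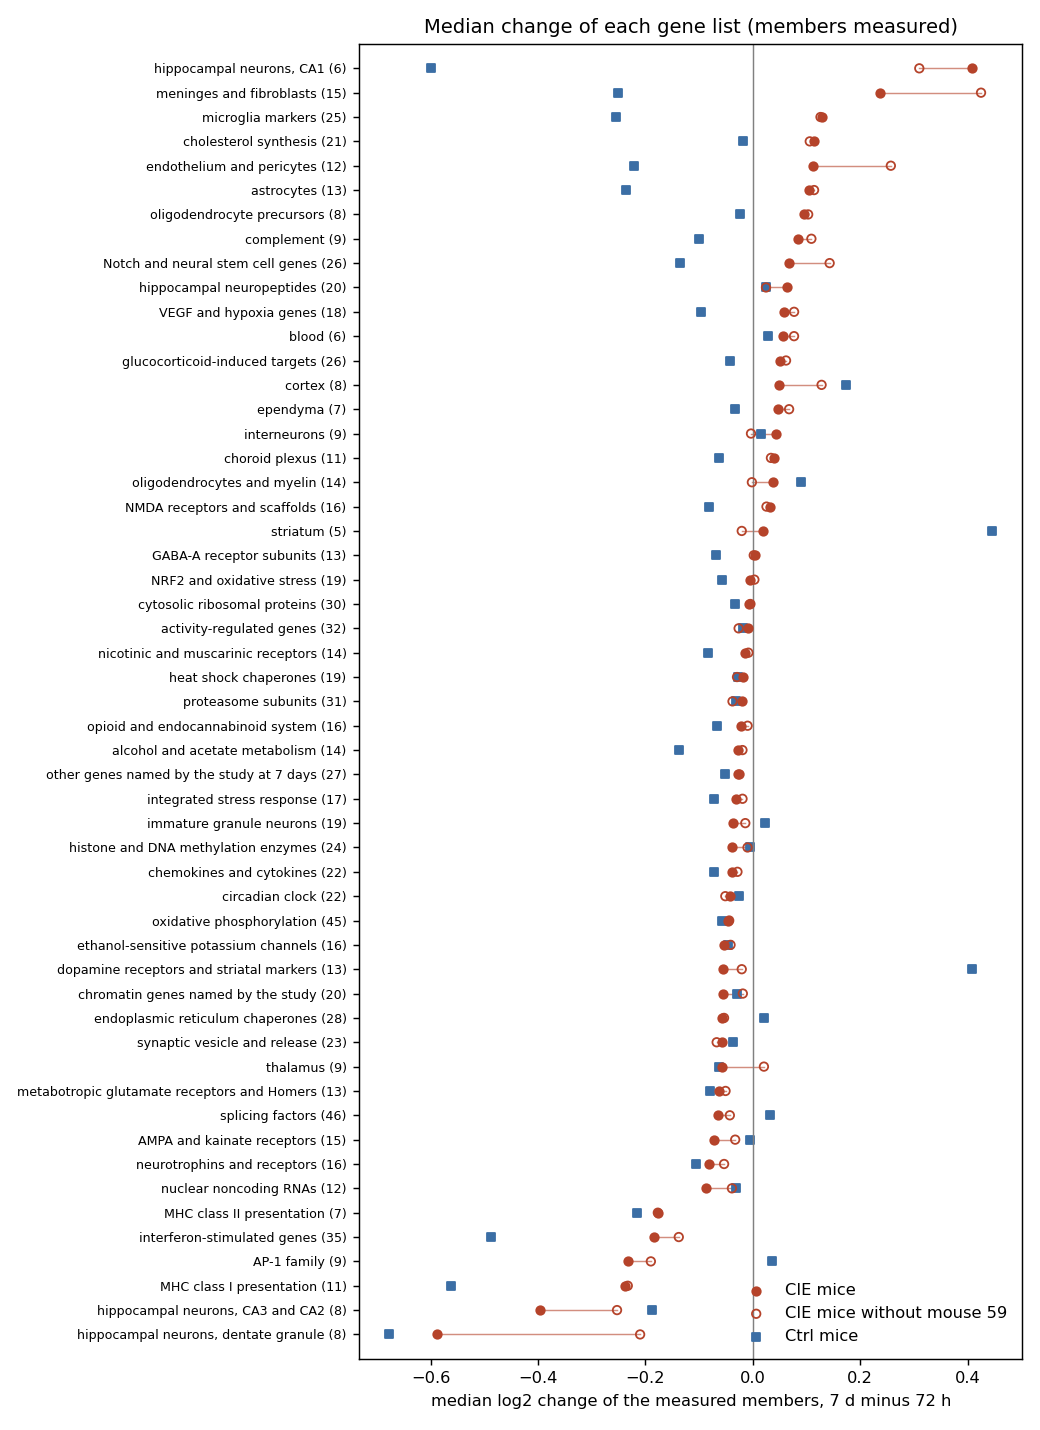
Median change in log2 expression from 72 h to 7 d (x axis) over the measured members of all 53 gene lists (y axis, number measured in parentheses), for CIE mice (filled red circles), CIE mice without mouse 59 (open red circles) and Ctrl mice (blue squares). Microglia, astrocyte, meningeal and CA1 medians lie above 0 in CIE mice and below 0 in Ctrl mice, and no list median was tested.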

How the data were processed

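RNA from the HPC of 48 mice was hybridized to Affymetrix mouse genome arrays. The deposited values are log2 expression, which the authors made with RMA by hybridization batch, quantile normalization and ComBat, with tool versions not given in the sources used here. All 45037 probe sets of 48 arrays were fitted with limma 3.58.1 in R 4.3.3 (lmFit, eBayes, 8 group means, 40 residual degrees of freedom), with Benjamini-Hochberg adjustment over all probe sets and a call at an FDR of 0.01 or less. Of the probe sets, 34945 had 1 symbol, 932 several and 9160 none, and each of 18193 genes was read from its brightest probe set with a single symbol, taking one with the suffix x_at, which can bind related transcripts, only where a gene had no other (100 genes). The text names the 15 genes with the smallest p in the comparison of CIE mice, together with members of the 53 lists, of which 13 listed genes were matched by synonym. The comparison, the lists and their members were chosen with earlier results of these data known. Groups came from the labels. Nothing in the labels says more of the replicates than that each is a separate mouse, and the number of arrays limits the precision. Array sets were read from exactly equal values shared by arrays, since no batch is labelled. Promoters came from RefSeq, build GRCm38.p6. The fits were tested on simulated data, and the alternatives tried are given in the closing section.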

Additional observations from a re-analysis of the deposited data

Results flagged for a closer look

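Each of the 15 named genes was examined in CIE mice of 72 h and of 7 d for a single mouse far from the other 5. Of these 30 looks, 2 found one. Chance gives one in about 1 of 20 independent looks. These looks share the same 12 mice, so that rate cannot be set against the count. Both were CIE mouse 59 of 7 d. Its log2 expression of Ncapd2 was 6.929, against 7.174 to 7.246 in the other 5 CIE mice of 7 d. Its log2 expression of Ciz1 was 8.169, against 8.281 to 8.338 in the others. This is the mouse with the low dentate granule marker mean, and the part of that in these values was not tested.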

How the results depend on the processing

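The number of called probe sets in CIE mice was 3 and became 7 at an FDR of 0.05, 7 with array weights and 1 without dim probe sets, and it ran from 2 to 4 when each mouse was left out in turn. In Ctrl mice 36 probe sets were called, 65 with the 24 arrays of 72 h and 7 d alone, 468 at an FDR of 0.05, 98 with array weights, 0 with the array set as a block and 0 without CIE mouse 59 and Ctrl mice 18 and 22, an alternative chosen after seeing the data. The difference of the changes was called for 0 to 1 probe sets when each mouse was left out. No paired analysis was possible because the mouse numbers in the labels are unique and no 2 groups share one, and the array set used as a block left 3 calls in CIE mice. Of 326 recomputed changes of the 15 named genes, 314 kept direction and side of the threshold, 7 lost the call, 5 gained one and 0 reversed. Most of these genes had no call to lose, and all 7 losses fell on Bmp4, Kcne1l and Fabp7. The gain of H1f2 came only from the looser FDR of 0.05, which was counted as an alternative. Of 106 list medians compared, 95 moved by less than the spread between mice. Those with the array set as a block could not move, since each set held 1 CIE mouse of 72 h and 1 of 7 d. Only the medians read from the most variable probe sets could. The causes of these shifts were not tested, and 6 mice a group limit what small changes could be called.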
